A study of Mus musculus with 6 samples.

Results

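The genes described here are the matrix metalloproteases (Mmp), the ADAMTS proteases (Adamts) and the tissue inhibitors of metalloproteases (Timp), measured in primary mouse prostate cells after deletion of Rb. Members were all non-control array probes whose gene symbol, found through the RefSeq accession of the probe, was Mmp, Adamts or Timp followed by a digit. This rule took 59 of 39429 probes and 45 of 20832 named genes, of which 22 were Mmp, 19 Adamts and 4 Timp genes. Expression could be tested for 30 of the 45 genes, which were 15 Mmp, 11 Adamts and all 4 Timp genes.

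Cultures of both groups came from p53-/- mice whose Rb alleles carry loxP sites (Rbf/f). In the Rb deleted group (3 samples) an adenovirus carrying Cre recombinase removed the loxP-flanked part of Rb, and in the Rb intact group (3 samples) the same kind of cells received an adenovirus carrying lacZ. All cultures were kept in Prostacult medium without FBS, with bFGF and bEGF added, and RNA was taken 48 h after infection. Loss of Rb and expression of Cre in place of lacZ therefore cannot be told apart. The series' design text speaks of 3 independent experiments, but no label says which animals the cultures came from, so the p-values measure the spread between these samples. The series was made to find genes that follow the loss of Rb where p53 is already absent, and the question here is what happened to the enzymes that cut the extracellular matrix and to their inhibitors.

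Matrix metalloproteases are zinc-dependent enzymes, made as inactive precursors, that together can degrade most proteins of the extracellular matrix and also process growth factors and cell surface proteins. ADAMTS proteases are secreted zinc enzymes that carry thrombospondin repeats and act on proteoglycans, procollagens and other matrix proteins. Timps bind the active site of these enzymes and block it, and the balance of proteases and Timps bears on tissue remodelling, branching of glands and invasion of tumours, the prostate included. Many Mmp genes that respond to growth factors and cytokines lie side by side in a cluster on mouse chromosome 9, and AP-1 sites close to the start of several of them are a well-known feature.

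Each level is the log2 intensity of the gene's probe minus the 75th percentile of its array, so a level of 0 equals that percentile and a difference of 1 is a doubling. Probes differ in how strongly they bind, so levels are compared between groups and never between genes. Rose and fell mean a Benjamini-Hochberg adjusted p under 0.05 over 13731 genes in limma (lmFit and eBayes), and each difference is Rb deleted minus Rb intact with the SE of the fit. Values of replicates are given in the order 1, 2, 3.

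The share of spots well above background was 59.6% to 64.0% per array, with none saturated. Rb1 had levels of -3.12, -3.11 and -3.07 in the Rb deleted samples, against -1.15, -1.13 and -1.16 in the Rb intact samples, which is 25.8% of the Rb intact level (difference -1.96 ± 0.05, limma adjusted p = 8.19e-05). Whether the Rb1 probe lies inside the deleted part is not known here. Of the 2 slides, one carried Rb deleted 1 with all 3 Rb intact samples and the other carried Rb deleted 2 and 3, so a comparison between groups within a slide exists for the first alone. Rb intact 1 stood apart from its group, with a median distance of 0.21 from the mean of the other Rb intact samples over the 30 tested members. For each of the other 5 arrays that distance was 0.06 to 0.12. Rb intact 1 lay outside the range of the other Rb intact samples for 26 members, above for 8 and below for 18. The other 5 arrays lay above both others of their group for 7 to 15 members and below both for 2 to 12. Of any 3 samples the highest and the lowest lie outside in this sense. Where a call changed without Rb intact 1, both values are given. The fit without this array called 37.2% of all genes, against 20.4% with all 6 arrays, so more calls are found in it generally.

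The cultures carried markers of several cell types. For the counts of markers below, 10.8% of all genes fell and 9.66% rose. All 9 fibroblast markers were measured, with a summed level of 8.22 to 8.31 in Rb deleted and 8.23 to 8.36 in Rb intact samples, and 1 of them, Lum, fell. The highest levels in that sum were those of Dcn and Col1a2. An unadjusted p under 0.05 was found for 3 of the 9, Lum, Col3a1 (difference -0.29 ± 0.09, limma adjusted p = 0.0737) and Pdgfrb (-0.13 ± 0.05, limma adjusted p = 0.123). Of the 9 differences 5 were above 0. Of 6 basal prostate markers 4 were measured and 3 fell (Itga6, Dst and Trp63), while Krt5 and Krt17 did not pass the filter. The fourth, the basal keratin Krt14, differed by 0.07 ± 0.14 (limma adjusted p = 0.758). The summed level was 4.43 to 4.47 in Rb deleted and 4.89 to 5.14 in Rb intact samples. Most of that sum is the Itga6 signal, at 4.28 to 4.32 in Rb deleted and 4.76 to 5.03 in Rb intact samples. All 3 measured smooth muscle markers fell, Acta2 by 1.35, Tagln by 0.93 and Cnn1 by 0.81 on the log2 scale, with a summed level of 4.20 to 4.23 in Rb deleted and 5.08 to 5.30 in Rb intact samples. The defining smooth muscle marker Myh11, the leukocyte markers Ptprc and Lyz2 and the neuroendocrine marker Chga were not well above background on any array. Other markers of the same lists were: Adgre1 on 4 arrays, Des on 2, and Csf1r, Itgam, Syp and Ncam1 on every array. Limma called none of the 4 measured luminal markers, although 1 of them had an unadjusted p under 0.05, and none of 3 endothelial (1 unadjusted) and 2 neuroendocrine markers (0 unadjusted). Of 3 measured macrophage and leukocyte markers Cd14 rose by 0.36, and the summed level was 2.31 to 2.50 in Rb deleted and 1.74 to 2.86 in Rb intact samples, with the 1.74 in Rb intact 1. The basal and smooth muscle sums were lower in the same samples as the members below that fell, and their part in those differences was not tested. In such mixed cultures fewer cells of a type and less RNA per cell cannot be told apart.

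The promoters of 5 genes of the cluster are shown because these genes differed in the measurements below: Mmp1a and Mmp7 fell, while Mmp3, Mmp10 and Mmp13 did not pass the threshold. The sequences are RefSeq windows of build GRCm38.p6, plus strand, from 250 bases before the annotated start to 50 bases after it, at chr9:7272264-7272563 (Mmp13), chr9:7445572-7445871 (Mmp3), chr9:7463891-7464190 (Mmp1a), chr9:7502092-7502391 (Mmp10) and chr9:7691840-7692139 (Mmp7). Capitals mark the match to the AP-1 site TGANTCA.
Mmp13: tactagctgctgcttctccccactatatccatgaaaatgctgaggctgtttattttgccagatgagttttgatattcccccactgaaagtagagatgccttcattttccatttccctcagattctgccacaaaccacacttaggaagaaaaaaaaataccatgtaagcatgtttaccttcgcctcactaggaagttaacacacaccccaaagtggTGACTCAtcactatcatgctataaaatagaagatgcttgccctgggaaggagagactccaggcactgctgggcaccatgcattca
Mmp3: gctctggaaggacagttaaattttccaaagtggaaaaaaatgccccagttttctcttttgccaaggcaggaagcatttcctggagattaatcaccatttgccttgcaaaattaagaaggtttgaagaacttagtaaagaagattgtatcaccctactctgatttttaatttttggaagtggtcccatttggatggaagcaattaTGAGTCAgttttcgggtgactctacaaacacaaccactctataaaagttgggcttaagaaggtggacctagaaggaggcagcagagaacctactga
Mmp1a: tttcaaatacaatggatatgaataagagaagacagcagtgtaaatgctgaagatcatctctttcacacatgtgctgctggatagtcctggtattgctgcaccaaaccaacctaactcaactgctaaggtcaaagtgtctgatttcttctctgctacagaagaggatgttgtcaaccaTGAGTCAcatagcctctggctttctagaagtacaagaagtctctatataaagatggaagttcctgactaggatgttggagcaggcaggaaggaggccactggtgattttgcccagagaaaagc
Mmp10: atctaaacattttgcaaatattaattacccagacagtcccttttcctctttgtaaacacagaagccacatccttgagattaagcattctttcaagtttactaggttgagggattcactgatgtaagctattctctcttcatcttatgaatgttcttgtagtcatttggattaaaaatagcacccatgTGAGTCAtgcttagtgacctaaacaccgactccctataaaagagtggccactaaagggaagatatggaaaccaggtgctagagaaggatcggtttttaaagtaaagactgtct
Mmp7: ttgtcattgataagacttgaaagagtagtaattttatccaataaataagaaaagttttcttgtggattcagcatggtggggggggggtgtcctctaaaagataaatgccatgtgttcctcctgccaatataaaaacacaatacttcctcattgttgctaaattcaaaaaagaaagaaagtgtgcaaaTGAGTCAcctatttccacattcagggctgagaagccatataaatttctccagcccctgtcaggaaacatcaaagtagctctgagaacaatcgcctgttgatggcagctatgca
All 5 windows held 1 AP-1 match, TGACTCA in Mmp13 at 35 bases before the start and TGAGTCA in the other 4, at 46 bases in Mmp3, 73 in Mmp1a, 63 in Mmp10 and 63 in Mmp7. Searched on both strands, TGANTCA was found in 7.81% of all 32851 promoter windows. It was found in 8 of the 10 genes of the cluster, all 7 tested ones among them, and in 0 of the 22 other member genes with a window. TATAAA was found in 9 of the 10 cluster genes and 2 of the 22 others (13.6% of all windows), and the Ets-type core AGGAAG in 7 of the 10 and 8 of the 22 (35.4% of all windows). No matches to these motifs overlapped in the members' windows. A match describes the sequence only: the genes that fell and those that did not pass the threshold both carried it.

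Across the 30 tested members 10 fell and 1 rose in Rb deleted cells. That is 36.7% of the members, where the same test called 20.4% of all tested genes, 10.8% as fallen and 9.66% as risen. The median difference was -0.12 over the members and 0.01 over all genes. Among the 28 members well above background on all 6 arrays, 9 fell and 1 rose, and of all genes that pass this stricter filter 20.3% were called, 10.5% as fallen and 9.8% as risen. In 16 of the 30 members the groups did not overlap, 12 with the Rb deleted samples lower and 4 higher, while 45.2% of all genes did not overlap, 21.5% lower and 23.7% higher, so the total is close to that of all genes and the split between directions is not. By family, 5 of 15 Mmp genes fell, 4 of 11 Adamts genes fell and 1 rose, and 1 of 4 Timp genes fell. Of the 13 Mmp genes well above background on all 6 arrays, 4 fell. The medians were -0.08 for Mmp and -0.35 for Timp, and -0.00065 for Adamts, whose sign turned to 0.06 without scaling between arrays and to 0.01 in the deposited log2 table, and was also above 0 without Rb deleted 2 (0.01), Rb deleted 3 (0.00125) or Rb intact 3 (0.02). With so few genes in each family no test between families was made.

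**Figure D1:**
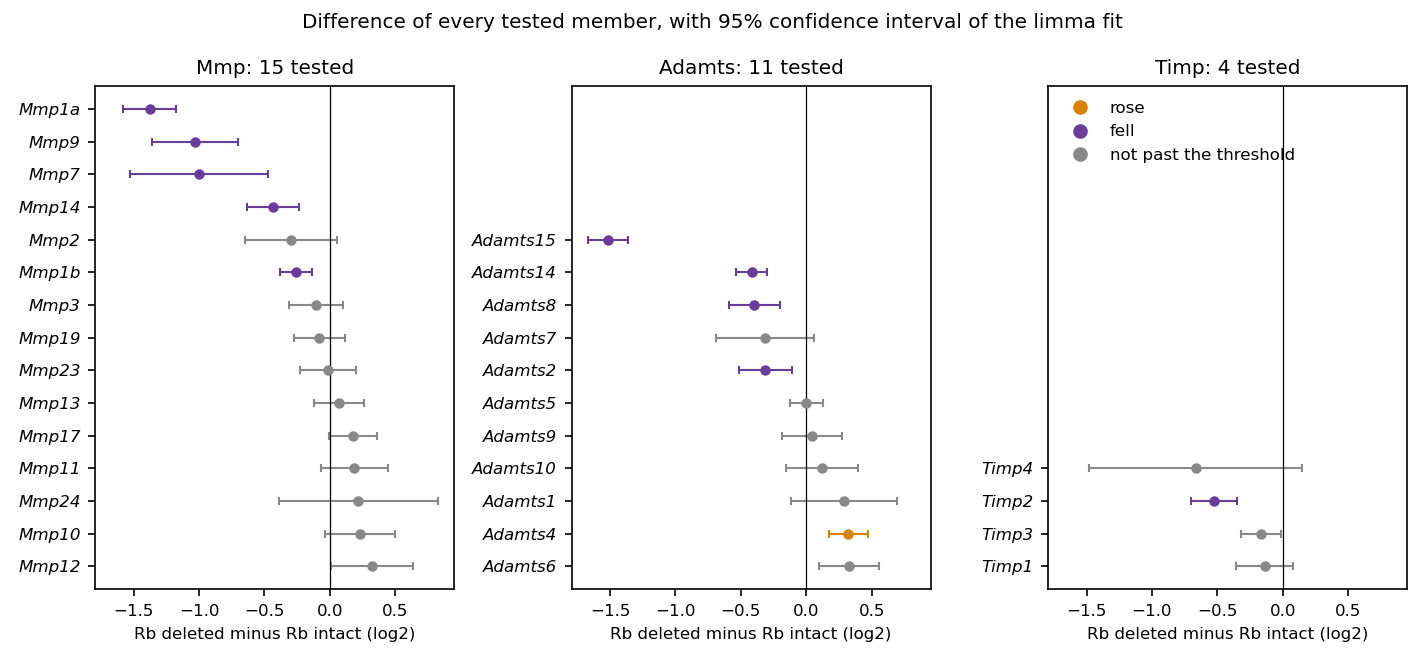
Log2 difference of each of the 30 tested members, Rb deleted minus Rb intact (horizontal axis), with the 95% confidence interval of the limma fit, in a panel per family. Purple marks the 10 members that fell, orange Adamts4, which rose, and grey the 19 that did not pass the threshold. Adamts15 at -1.52 and Mmp1a at -1.38 lie farthest from 0.

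Mmp1a, one of the mouse counterparts of interstitial collagenase, which cuts fibrillar collagen, fell. Its levels were -0.02, -0.06 and -0.16 in the Rb deleted samples, against 1.15, 1.36 and 1.40 in the Rb intact samples. The groups were far apart, and the Rb deleted mean was 38.5% of the Rb intact one (difference -1.38 ± 0.08, limma adjusted p = 0.000336). Within the first slide the difference was -1.32 (limma adjusted p = 0.0469), and with slide as a block the adjusted p was 0.0106. Its paralog Mmp1b had levels of 0.06, 0.05 and 0.08 in the Rb deleted samples and 0.34, 0.28 and 0.34 in the Rb intact samples. The groups did not overlap, but the fall was small (difference -0.26 ± 0.05, limma adjusted p = 0.0161). The Mmp1b call was lost without any 1 of the Rb deleted samples (limma adjusted p 0.0560 to 0.0848), without Rb intact 3 (0.0625) and with slide as a block (0.161). Mmp1a and Mmp1b are close paralogs, and whether their probes share signal was not tested, so both values are uncertain in that respect.

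Mmp13, the main collagenase of mouse tissues, is the first gene of the cluster in gene order. Its levels were 2.25, 2.42 and 2.32 in the Rb deleted samples and 2.13, 2.30 and 2.34 in the Rb intact samples. The groups overlapped, and the difference of 0.07 ± 0.08 (95% interval -0.12 to 0.26, limma adjusted p = 0.562) did not pass the threshold. The remaining collagenase gene of the cluster, Mmp8 (neutrophil collagenase), was not well above background on any array.

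Mmp3 and Mmp10 encode stromelysins, which cut proteoglycans, laminin and fibronectin and activate other Mmp precursors. Mmp3 had levels of 7.31, 7.20 and 7.07 in the Rb deleted samples and 7.37, 7.19 and 7.35 in the Rb intact samples. The groups overlapped (difference -0.11 ± 0.09, 95% interval -0.31 to 0.10, limma adjusted p = 0.418). Mmp10 had levels of 5.54, 5.49 and 5.41 in the Rb deleted samples and 5.01, 5.36 and 5.38 in the Rb intact samples. All Rb deleted samples lay above all Rb intact ones by a gap of 0.03, and the difference of 0.23 ± 0.11 (95% interval -0.04 to 0.50, limma adjusted p = 0.196) did not pass the threshold. Without Rb intact 1, the lowest sample, the Mmp10 difference was 0.11 (limma adjusted p = 0.151). Within the first slide the differences were 0.01 for Mmp3 and -0.01 for Mmp13, on the other side of 0, and 0.29 for Mmp10, with no call. Mmp3 and Mmp10 are also paralogs, and shared probe signal was not tested. The third stromelysin, Mmp11, which is cleaved inside the cell before secretion, had a difference of 0.19 ± 0.11 (limma adjusted p = 0.256) and 0.04 ± 0.06 on its other probe. Without Rb intact 1 the Mmp11 difference was 0.08.

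None of Mmp3, Mmp10 and Mmp13 passed limma's threshold, nor did any of them have an unadjusted p under 0.05, and their differences were set against each other within arrays. The Mmp3 difference minus the Mmp10 difference was -0.33 (exact two-sided permutation p = 0.1, adjusted over 3 pairs 0.15), the Mmp3 minus Mmp13 value was -0.17 (exact p = 0.3, adjusted 0.3) and the Mmp10 minus Mmp13 value was 0.16 (exact p = 0.1, adjusted 0.15). With 3 against 3 samples such a test cannot go below 0.1, so these pairs cannot reach 0.05. Without Rb intact 1 the values were -0.18 for Mmp3 minus Mmp10, -0.08 for Mmp3 minus Mmp13 and 0.10 for Mmp10 minus Mmp13. The Mmp1a difference was lower than those of its neighbours, with values of -1.27 for Mmp1a minus Mmp3, -1.61 for Mmp1a minus Mmp10 and -1.12 for Mmp1a minus Mmp1b. Each of these 3 pairs, chosen after the values were seen, had the smallest exact p the design allows, 0.1.

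**Figure D2:**
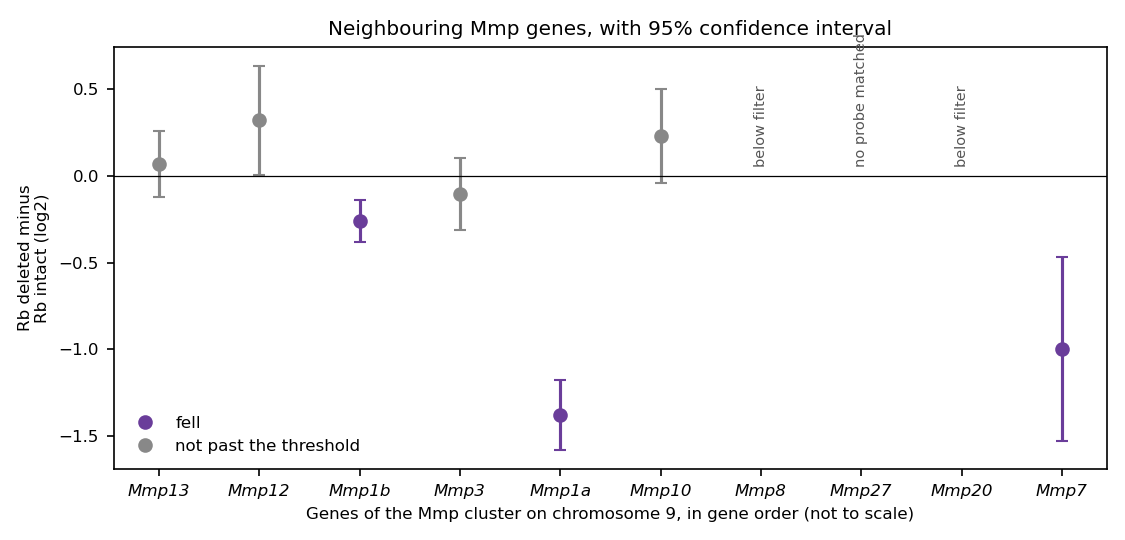
Log2 difference of each gene of the chromosome 9 cluster, Rb deleted minus Rb intact, with 95% confidence interval (vertical axis), in gene order and not to scale. Mmp1b, Mmp1a and Mmp7 fell, and between and beside them Mmp13, Mmp12, Mmp3 and Mmp10 did not pass the threshold.

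In gene order the cluster runs Mmp13, Mmp12, Mmp1b, Mmp3, Mmp1a, Mmp10, Mmp8, Mmp27, Mmp20 and Mmp7. Of its 7 tested genes 3 fell (Mmp1b, Mmp1a and Mmp7), where 10.8% of all genes fell, and the median difference of the 7 was -0.11. Mmp7 is in this count although it passed the filter through the Rb intact group alone. Leaving Mmp7 aside, Mmp1b and Mmp1a were left as fallen. With slide as a block Mmp1a and Mmp7 remained called and Mmp1b did not. Mmp12, macrophage elastase, had levels of -3.83, -3.76 and -3.69 in the Rb deleted samples and -4.37, -3.94 and -3.93 in the Rb intact samples. The Rb deleted samples lay above all Rb intact ones, but the difference of 0.32 ± 0.13 (limma adjusted p = 0.134) did not pass the threshold, and it was 0.17 without Rb intact 1, the lowest sample. Mmp7, matrilysin, a small protease made by epithelial cells that is known from prostate epithelium, was well above background on all 3 Rb intact arrays and on 0 of 3 Rb deleted arrays. Its levels were -6.83, -6.33 and -5.93 in the Rb deleted samples, none of them well above background, against -5.41, -5.43 and -5.25 in the Rb intact samples. Mmp7 fell, at least 1.65-fold lower in Rb deleted cells (limma adjusted p = 0.0245). Its probe passed the filter through the Rb intact group alone, and its p-values rest on Rb deleted signals not well above background. For this bound the Rb intact mean was set against a floor on each Rb deleted array, which was the dimmest signal still well above background or the Mmp7 signal where that was brighter. The Mmp7 call was lost without Rb deleted 2 (limma adjusted p = 0.0836), Rb intact 2 (0.0612) or Rb intact 3 (0.0746), and held within the first slide (0.0363). Setting Mmp7 at its bound left the medians of the Mmp genes and of the cluster at -0.08 and -0.11.

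Of the gelatinases, which cut denatured collagen and the type IV collagen of basement membranes, Mmp9 fell and Mmp2 did not pass the threshold. Mmp9 had levels of -2.40, -2.35 and -2.40 in the Rb deleted samples, against -1.67, -1.20 and -1.18 in the Rb intact samples. The Rb deleted samples lay close together and all below the Rb intact ones, among which replicate 1 was the lowest, and the Rb deleted mean was 48.9% of the Rb intact one (difference -1.03 ± 0.14, limma adjusted p = 0.00458). The Mmp9 probe was spotted 10 times on each array, with an SD between spots of 0.05 to 0.13. The Mmp9 difference was -1.04 within the first slide, where the call was lost (limma adjusted p = 0.172, and 0.0646 with slide as a block). Mmp2 had levels of 2.05, 2.02 and 1.98 in the Rb deleted samples, against 1.98, 2.44 and 2.52 in the Rb intact samples. Rb intact 1 was level with the Rb deleted samples while the other Rb intact samples were higher, and the difference was -0.30 ± 0.14 (limma adjusted p = 0.196). Without Rb intact 1, Mmp2 fell by 0.47 on the log2 scale (limma adjusted p = 0.00231), so that 1 sample decides this call. That fit called 37.2% of all genes.

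Mmp14, the membrane-anchored protease MT1-MMP that activates the Mmp2 precursor together with Timp2, fell. Its levels were 0.71, 0.70 and 0.72 in the Rb deleted samples, against 1.31, 1.04 and 1.08 in the Rb intact samples. The groups did not overlap, and Rb intact 1 was the highest sample here (74.1% of the Rb intact level, difference -0.43 ± 0.08, limma adjusted p = 0.0154). The call was lost without any 1 of the Rb deleted samples (limma adjusted p 0.0525 to 0.0700) and with slide as a block (0.150), while the difference stayed between -0.48 and -0.35 without any 1 of the 6 samples. The other tested enzymes of the membrane-type (MT) group, Mmp24 at 0.22 ± 0.25 and Mmp17 at 0.18 ± 0.08, did not pass the threshold. Mmp24 was well above background on all 3 Rb deleted arrays but on 1 Rb intact array. Without Rb intact 1, Mmp17 rose by 0.23 (limma adjusted p = 0.0378) and the Mmp24 difference was 0.48 (limma adjusted p = 0.0784). Mmp19 at -0.08 ± 0.08 and Mmp23 at -0.01 ± 0.09 did not pass the threshold either.

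**Figure D3:**
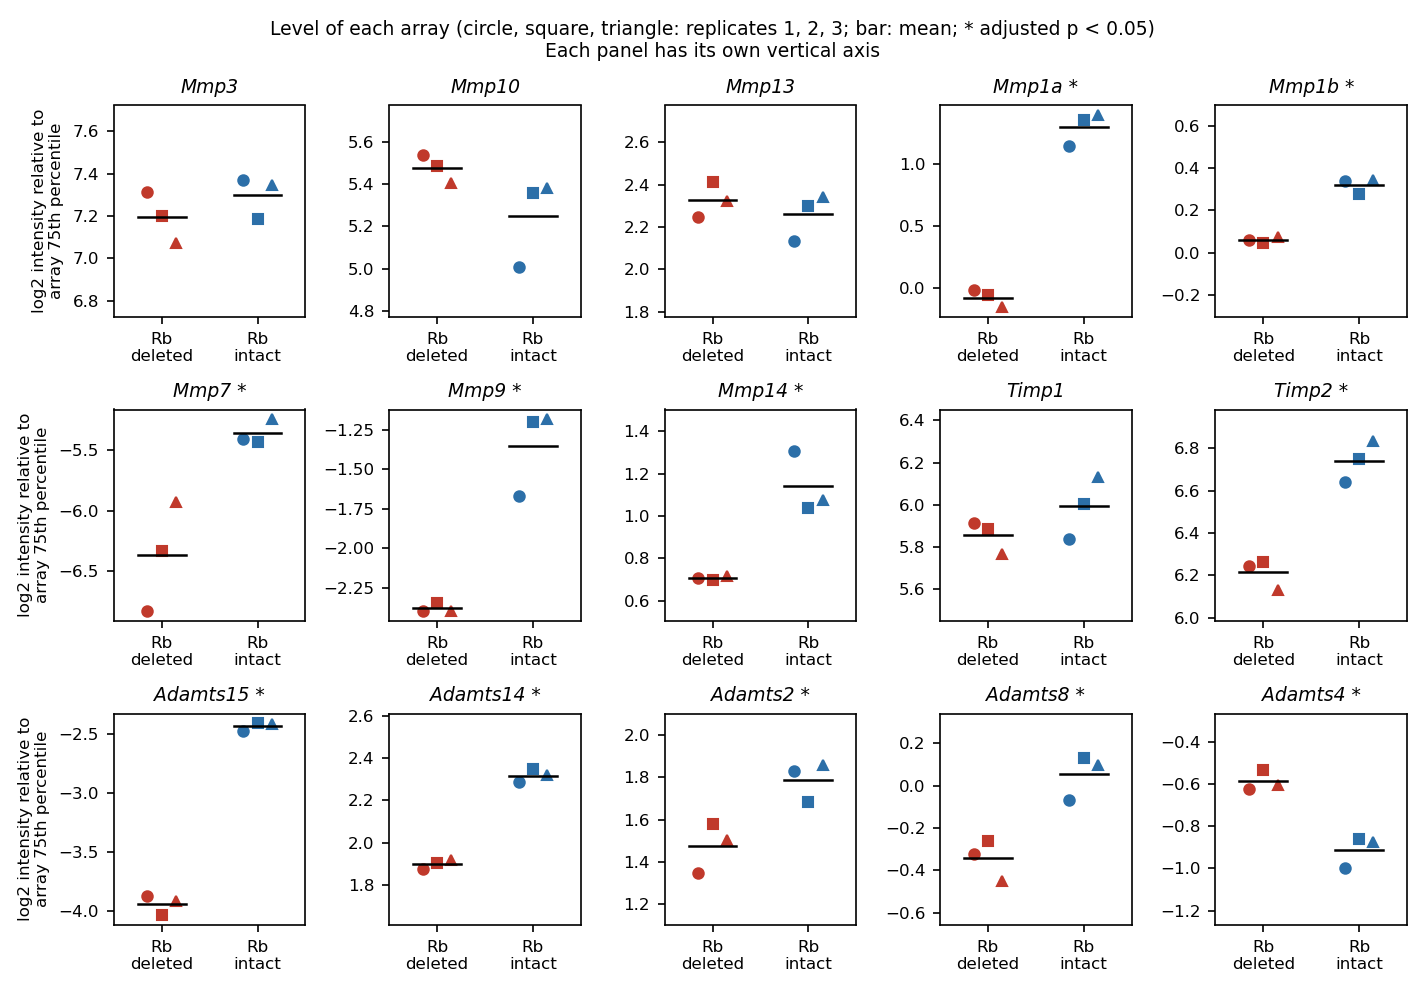
Level of 15 members in each array, as log2 intensity minus the 75th percentile of the array (vertical axes differ between panels), with Rb deleted samples in red on the left, Rb intact samples in blue on the right and a bar at each mean. Asterisks mark the 11 called genes, in each of which the groups do not overlap; Mmp3, Mmp13 and Timp1 overlap.

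Timp2, an inhibitor of many metalloproteases that also takes part in Mmp2 activation, was the Timp that fell. Its levels were 6.24, 6.26 and 6.13 in the Rb deleted samples, against 6.64, 6.75 and 6.84 in the Rb intact samples. The groups did not overlap, and the Rb deleted mean was 69.4% of the Rb intact one (difference -0.53 ± 0.07, limma adjusted p = 0.00507). The other Timp2 probe had 4.21, 4.26 and 4.24 in the Rb deleted samples and 5.27, 4.92 and 4.95 in the Rb intact samples, a difference of -0.81 ± 0.10 (limma adjusted p over all probes = 0.00553, in a fit that called 15.9% of all probes). The Timp2 call held without any 1 sample, and was lost with slide as a block (difference -0.50, limma adjusted p = 0.0820).

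Timp1, an inducible inhibitor of most secreted Mmps, had levels of 5.92, 5.88 and 5.77 in the Rb deleted samples and 5.84, 6.01 and 6.13 in the Rb intact samples. The groups overlapped (difference -0.14 ± 0.09, limma adjusted p = 0.321). Timp3, which binds to the matrix and also blocks several Adam and ADAMTS proteases, had levels of -1.66, -1.56 and -1.60 in the Rb deleted samples and -1.45, -1.35 and -1.51 in the Rb intact samples. The Rb deleted samples lay below the Rb intact ones by a gap of 0.05, and the difference of -0.17 ± 0.06 (limma adjusted p = 0.112) did not pass the threshold. Timp4, the member with the narrowest tissue range, had levels of -5.31, -5.45 and -5.31 in the Rb deleted samples and -3.86, -5.14 and -5.07 in the Rb intact samples. Rb intact 1 stood more than 1 log2 unit above every other sample, so the difference of -0.67 ± 0.34 (limma adjusted p = 0.210) became -0.25 without it (limma adjusted p = 0.0264).

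Among the Adamts genes whose products cut aggrecan, versican and related proteoglycans, Adamts15 fell, Adamts8 fell and Adamts4 rose, while Adamts1, Adamts5 and Adamts9 did not pass the threshold. Adamts15 had levels of -3.87, -4.04 and -3.92 in the Rb deleted samples, against -2.47, -2.40 and -2.41 in the Rb intact samples. The groups were separated by 1.41 log2 units, and the Rb deleted mean was 34.9% of the Rb intact one (difference -1.52 ± 0.06, limma adjusted p = 0.000183). Within the first slide the difference was -1.45 (limma adjusted p = 0.0289). Adamts15 and Mmp1a were the members called in all 20 other settings tried.

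Adamts8, a proteoglycanase that can restrain vessel growth, had levels of -0.32, -0.26 and -0.45 in the Rb deleted samples, against -0.07, 0.13 and 0.10 in the Rb intact samples. The groups did not overlap (difference -0.40 ± 0.08, limma adjusted p = 0.0193), but the other Adamts8 probe gave 0.09 ± 0.17 (limma adjusted p over all probes = 0.745), so the probes disagree. That probe was much dimmer, at -4.55, -4.63 and -4.83 in the Rb deleted samples and -4.45, -5.07 and -4.75 in the Rb intact samples. The call was also lost without Rb deleted 1 or 3 or Rb intact 2 or 3 (limma adjusted p 0.0564 to 0.0768) and with slide as a block (0.187). Adamts4, an aggrecanase, was the member that rose, with levels of -0.62, -0.54 and -0.60 in the Rb deleted samples, against -0.998, -0.859 and -0.876 in the Rb intact samples. The Rb deleted samples all lay above the Rb intact ones, at 125% of their level (difference 0.32 ± 0.06, limma adjusted p = 0.0161). That call was lost without Rb deleted 2 (limma adjusted p = 0.0804) or 3 (0.0671) and with slide as a block (0.185). Of the other proteoglycanases, Adamts5, the major aggrecanase of mouse cartilage, differed by -0.00065 ± 0.05 (95% interval -0.13 to 0.13) and Adamts9 by 0.05 ± 0.09. Adamts1, at 0.29 ± 0.17, had levels of 0.70, 0.83 and 0.80 in the Rb deleted samples and 0.10, 0.75 and 0.61 in the Rb intact samples, with replicate 1 the lowest, and without that sample the difference was 0.10.

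Adamts2 and Adamts14, which remove the N-terminal propeptide of fibrillar procollagens, both fell. Adamts14 had levels of 1.87, 1.90 and 1.92 in the Rb deleted samples, against 2.29, 2.35 and 2.32 in the Rb intact samples. The spread within groups was small and the groups did not overlap (74.8% of the Rb intact level, difference -0.42 ± 0.05, limma adjusted p = 0.00291). With slide as a block the adjusted p was 0.0433, and within the first slide 0.177. Adamts2 had levels of 1.35, 1.58 and 1.51 in the Rb deleted samples, against 1.83, 1.68 and 1.86 in the Rb intact samples (difference -0.31 ± 0.08, limma adjusted p = 0.0456). The groups did not overlap, but the Adamts2 call was lost without any 1 of the 6 samples (limma adjusted p 0.0550 to 0.127) and with slide as a block (0.0888). The other probes of both genes were lower in all Rb deleted samples than in all Rb intact ones without passing the threshold, Adamts14 with -0.33 ± 0.15 and Adamts2 with -0.28 ± 0.11. Adamts3, the remaining enzyme of this kind, was not well above background on any array.

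**Figure D4:**
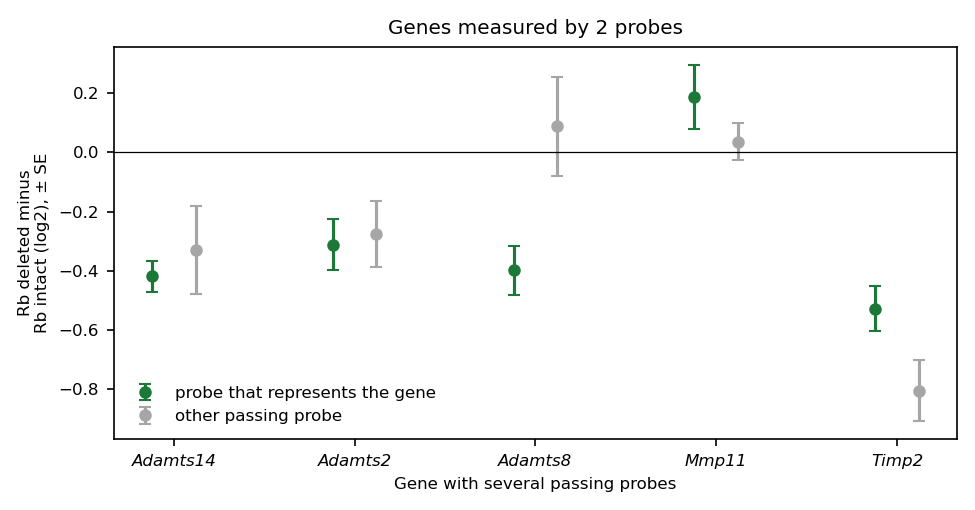
Difference (Rb deleted minus Rb intact, log2, ± SE of the limma fit over all probes) of both passing probes of the 5 members that have 2, with the probe that represents the gene in green and the other in grey. Both Timp2 probes lie well below 0, at -0.53 and -0.81, while the Adamts8 probes lie on either side of 0.

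Of the remaining tested Adamts genes none passed limma's threshold, and 1 of the 3, Adamts6, had an unadjusted p under 0.05. Adamts6 had levels of -4.36, -4.64 and -4.38 in the Rb deleted samples and -4.69, -4.82 and -4.85 in the Rb intact samples. The groups did not overlap, by a gap of 0.05 (difference 0.33 ± 0.09, limma adjusted p = 0.0565), and the adjusted p was 0.0345 without Rb intact 1. Adamts7, which cuts cartilage oligomeric matrix protein, had levels of 0.93, 0.74 and 0.73 in the Rb deleted samples and 1.46, 0.91 and 0.96 in the Rb intact samples. Rb intact 1 stood well above the other samples, and the difference was -0.31 ± 0.16 (limma adjusted p = 0.204), and -0.14 without that sample. Adamts10, a partner of fibrillin microfibrils, differed by 0.12 ± 0.11, and by 0.02 without Rb intact 1.

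Only the first slide holds both groups. Within it, 3 of the 30 members were called, Adamts15, Mmp1a and Mmp7, and all 3 fell, where 1.1% of all genes were called and 0.904% fell. Leaving aside Mmp7, whose Rb deleted signal was not well above background on any array, Adamts15 and Mmp1a were left, with differences of -1.45 and -1.32. With slide as a block Adamts14 was called as well, so that 4 members were called, all as fallen (4.89% of all genes called, 3.43% as fallen), or 3 without Mmp7. The other 7 calls were lost in both, although the difference of each kept its sign. Within the first slide the single Rb deleted sample is assumed to vary like the Rb intact ones.

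**Figure D5:**
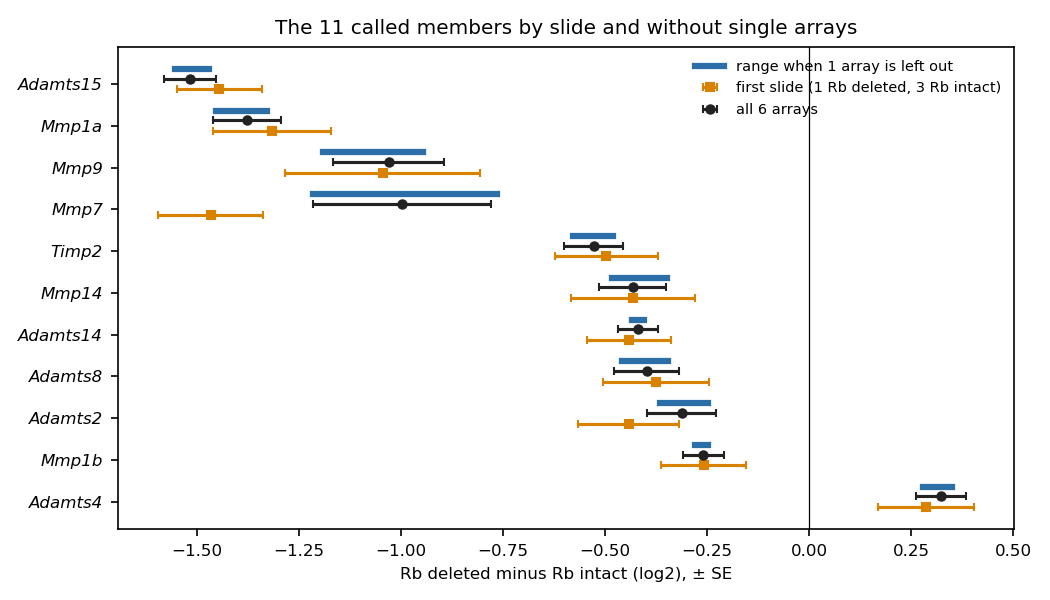
Difference of the 11 called members (Rb deleted minus Rb intact, log2) over all 6 arrays (black, ± SE), within the first slide with 1 Rb deleted and 3 Rb intact arrays (orange, ± SE), and the range when any 1 array is left out (blue bar). No bar or point crosses 0. The Mmp7 points are fitted values from Rb deleted signals not well above background, so its fall is known only as a bound.

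For 15 members no difference was tested. Of these, 10 were not well above background on any array, namely Adamts3, Adamts16, Adamts19, Adamts20, Mmp8, Mmp15, Mmp16, Mmp20, Mmp25 and Mmp28. The other 5, Adamts12, Adamts13, Adamts17, Adamts18 and Mmp21, reached it on 1 or 2 arrays. Some of them are known for narrow expression, such as Mmp20 in tooth enamel and Adamts13 in liver. No array probe was matched to Mmp27.

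Genes that act with these proteases were followed as lists, and no list was tested as a set. Over all genes 20.4% were called, 10.8% as fallen and 9.66% as risen, and 4.89% were called with slide as a block. In the plasminogen system, whose protease plasmin activates several Mmp precursors, 4 of 8 tested genes fell and 2 rose (median -0.34). The falls were in the plasmin-generating proteases Plau by 0.66 and Plat by 0.42 on the log2 scale, in the secreted protease inhibitor Serpine2 by 1.25 and in the urokinase inhibitor Serpinb2 by 0.81 (limma adjusted p 0.000696 to 0.0200). St14, the membrane protease matriptase, rose by 0.74. With slide as a block Serpine2 and Serpinb2 remained called. Of 13 tested inhibitors, activators and receptors of metalloproteases 4 fell (median -0.14): Lrp1, a receptor that clears Mmps and Timps from the medium, by 0.56, the procollagen processing enhancer Pcolce2 by 0.57, and the proprotein convertases Pcsk5 by 1.02 and Pcsk6 by 0.60. Pcsk5 was well above background on 2 of 3 Rb deleted arrays, so its probe passed the filter through the Rb intact group alone. Of the 11 genes of this list well above background on all 6 arrays, 3 fell (Lrp1, Pcolce2 and Pcsk6). None of the 4 fallen genes was called with slide as a block. Spock1 was called in that fit, as risen. With all arrays it differed by 0.43 ± 0.15 (limma adjusted p = 0.0885) and was well above background on 2 of 3 Rb intact arrays. Reck, a membrane-bound Mmp inhibitor, differed by 0.01 ± 0.11, and Furin by -0.33 ± 0.23.

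Among 10 tested Adam proteases, the membrane-bound relatives of the ADAMTS enzymes, Adam8 rose by 0.38 and 4 fell (Adam15, Adam19, Adam23 and Adam33), with a median of -0.16. Over all genes 9.66% rose and 10.8% fell. With slide as a block limma called none of these Adam genes (5 with an unadjusted p under 0.05) and 4.89% of all genes. None of the 3 tested astacins, the family of the procollagen C-proteinase Bmp1, passed limma's threshold (1 with an unadjusted p under 0.05), nor did the only tested Adamts-like gene, Adamtsl4. Of 16 tested matrix proteins that these enzymes cut, 3 fell (18.8%, where 10.8% of all genes fell) and 0 rose. The share called in either direction was therefore also 18.8%, against 20.4% of all genes. The falls were in the basement membrane proteins Nid1 by 0.74, Hspg2 by 0.51 and Col4a1 by 0.26 on the log2 scale. The fibrillar collagen genes Col1a1, at -0.09 ± 0.07, and Col1a2, at 0.00254 ± 0.07, did not pass the threshold. With slide as a block Nid1 and Hspg2 remained called, and Col4a1 did not.

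Of 13 tested genes of AP-1, Ets and Runx factors 6 rose and 0 fell, where 9.66% of all genes rose and 10.8% fell. The median of this list was 0.34, and all 13 differences were above 0 (9 with an unadjusted p under 0.05). Fosb rose by 1.01 ± 0.11 (limma adjusted p = 0.00261) and Fos by 0.72 ± 0.06 (limma adjusted p = 0.000793), and both were called with slide as a block. Jun, Junb, Jund and Etv4 rose by 0.33 to 0.40. Of 8 tested cytokines and growth factors 4 rose, Il11 by 1.05, Fgf2 by 1.01, Lif by 0.58 and Il6 by 0.51, and 2 fell, Tgfb2 by 1.23 and Tgfb1 by 0.30 on the log2 scale. With slide as a block the Il6 and Tgfb1 calls were lost and the other 4 remained, and within the first slide 1, Il11, was called. These lists were described with the members because of their known links to Mmp expression, and no relation between them and the members was tested.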

How the data were processed

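RNA of 6 cultures, 3 Rb deleted and 3 Rb intact, was hybridised to 1-colour Agilent arrays with Cy3. Per the file headers, the authors extracted intensity values with Feature Extraction 11.0.1.1, while 10.7.3.1 is the version in the submitters' processing notes. The deposited processed intensity is the spot signal after background subtraction, with flags for background, saturation and outlying spots. A deposited table holds log2 values, whose scaling no label gives; each column equalled the log2 processed intensity of its array minus a constant within 0.01 for 100% of 22164 probes, with column medians of -0.52 to -0.49.

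Of 43020 non-control spots, outlying ones (134 to 263 per array) were left out and spots of a probe averaged. Levels are log2 processed intensity minus the array's 75th percentile. A probe passed the filter when either group had it well above background on each of its 3 arrays (23051 of 39429 did). RefSeq accessions named 27427 probes (20832 genes, gene table of GRCm38.p6), and 12002 stayed unnamed. The array was designed on mm9, so only promoter windows carry coordinates, in the table's build. The passing probe with the highest mean represented a gene (13731 genes).

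The comparison of groups used limma 3.58.1 (R 4.3.3). Pairs of genes were compared by exact permutation tests over arrays, run in Python 3.11.15 on their difference in level within each array. Confidence intervals of the fit used scipy 1.17.1. The fit was first tested on simulated data. Precision is limited by the number of arrays.

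The members, lists and tests were chosen with earlier results of these data known. Values in every sample are given for the called members, Mmp3, Mmp10, Mmp13, the Timps, the tested cluster genes and up to 3 of the largest other differences per family, and up to 2 genes per list were to be named by smallest p; further genes of the lists, and the pairs with Mmp1a, were named after their values were seen. Some genes of the lists are not reported here by name. Alternatives covered scaling, background model, filter, probe choice, the variance model and array weights, blocks for slide or replicate number, other thresholds, fits on the deposited log2 table and fits without any 1 array.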

Additional observations from a re-analysis of the deposited data

How the results depend on the processing

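Mmp1a and Adamts15 were called in all 20 other fits. Of the 30 tested members 11 were called, against 6 without scaling between arrays, 5 without the filter on dim probes, 4 with slide as a block, 3 within the first slide, 5 at an adjusted p under 0.01, and 6 to 14 when 1 array was left out, with 14 without Rb intact 1, where Adamts2 was lost and Adamts6, Mmp2, Mmp17 and Timp4 were called anew. Of the 15 tested Mmp genes 5 were called, against 2 without the filter, with the slide block, within the first slide and at 0.01, 8 with array weights, and 2 to 7 with 1 array left out. Of the 11 tested Adamts genes 5 were called, against 1 without scaling, 2 without the filter, 3 with the mean of probes, 2 with slide as a block, 1 within the first slide, 2 at 0.01, and 2 to 5 with 1 array left out. Of the 4 Timps 1 was called, against 2 with array weights, 1 to 2 with 1 array left out, and 0 by limma with the slide block and within the first slide (1 with an unadjusted p under 0.05 in each). Mmp3 was 0.0130 and Mmp13 -0.0105 with the slide block and in the first slide, and Mmp3 minus Mmp13 was 0.0236 within it. The cause of these changes was not tested, beyond the fewer arrays or other genes of each fit. The fit without Rb intact 1 called 5112 of all genes (37.2%). Over all genes 2806 were called, against 672 with slide as a block, 151 within the first slide, 1289 without scaling, 1491 without the filter, 6146 with array weights, and 1254 to 5112 with 1 array left out.

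The samples share replicate numbers, but deviations from the group means of samples with the same number correlated at -0.05 to 0.02 over 13713 genes, so the numbers were not taken as pairs. With the replicate number as a block 7 members were called, 2 of them Adamts genes and none called anew, and 1661 of all genes.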
